A study of Mus musculus with 29 samples.

Results

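Glucuronosyltransferases (UGTs), sulfotransferases (SULTs) and soluble glutathione S-transferases (GSTs) are the conjugating enzymes of detoxification. They couple foreign compounds, and the body's own steroids, bile acids and lipid peroxides, to glucuronic acid, to sulfate or to glutathione, and the products are then pumped out of the cell. Each reaction consumes a donor: UDP-glucuronic acid, the activated sulfate PAPS, or glutathione itself. In the colon the epithelium is a main site of these enzymes, and several GST genes are known targets of the transcription factor NRF2, which responds to oxidants. Members were all protein-coding genes whose mouse symbol begins with Ugt or Sult and a digit, or with Gst, a class letter (a, k, m, o, p, t or z) and a digit. No measured level was used to choose them. This gave 65 genes of 54532 in the table, namely 22 UGTs, 21 SULTs and 22 GSTs. Of these, 35 had enough reads to be tested, a mean of 3 counts or more per mouse (6 UGTs, 8 SULTs and 21 GSTs), and 30 did not.

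Colon segments of 29 mice were sequenced as poly(A) RNA, with 1 library per mouse, in 6 colitis models and 3 control groups (n = 3 per group, n = 4 in TRUC and IL10). The labels give Balb/C as the strain of the WT controls, which were untreated, and of 3 models compared with them here. DSS mice drank 3% dextran sulfate sodium, which damages the epithelium, for 5 days and were culled on day 10. The study's methods instead name C57BL/6 as the strain of bought wild-type mice and of DSS mice, culled on day 7 or 8. DNBS mice received 3 mg of dinitrobenzene sulfonic acid, a hapten, rectally in 200 µl of 50% ethanol. IL10 mice are labelled as given an IL10 blocking antibody, where the treatment text names 750 µg of an antibody to the IL-10 receptor with culling at 4 weeks, and the study's methods describe Il10-/- mice instead. The Rag2 controls, untreated Balb/C Rag2-/- mice without mature lymphocytes, were compared with TRUC, Balb/C mice that carry Rag2-/- and Tbx21-/- and develop colitis unprompted. Colitis and loss of Tbx21 cannot be told apart in TRUC. The Rag1 controls are labelled untreated C57BL/6 Rag1-/-. They were compared with T cell transfer (TCT), in which C57BL/6 Rag1-/- recipients, called Rag2-/- in the treatment text, got 500000 naive CD4+ T cells intraperitoneally. These were culled after 6 to 8 weeks, where the study's methods give 4 to 6 weeks. The Rag1 controls were also compared with anti-CD40, in which C57BL/6 Rag1-/- mice got 50 µg of an agonistic antibody and were culled after 7 days. DSS, DNBS and IL10 share the WT controls, and TCT and anti-CD40 share the Rag1 controls, so these comparisons are not independent. Ages are not given in the labels. No label says that the mice of a group came from separate litters or cages, so p values measure the spread between these libraries.

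Some libraries went against their labels. H2-Ea-ps, a class II pseudogene whose transcript differs between inbred strains, was above 10 CPM in 13 mice (Rag1 controls, Rag2 controls, TRUC and anti-CD40) and had at most 1 count in the other 16 (WT controls, DSS, DNBS, IL10 and TCT). This split does not follow the labelled strains, and it puts the libraries labelled TCT apart from the libraries labelled Rag1 control. Rag1 transcript was found at 1.85 to 2.88 CPM in TCT and at no more than 0.294 CPM in any other group, while Rag2 transcript was found at 0.442 to 1.72 CPM in the Rag1 controls, at 3.44 to 8.48 CPM in anti-CD40 and at 0 in TCT. In the groups labelled Rag2-/- it was at 1.13 to 2.21 CPM (Rag2 controls) and 5.13 to 6.93 CPM (TRUC), so the ranges of the Rag1 and Rag2 controls overlapped, as did those of anti-CD40 and TRUC. The labels' identifiers for TRUC mice 4 and 5 are of another form than those of mice 2 and 3, and whether they came from the same cohort is not given. Without mouse 4, 19 members were called in TRUC and without mouse 5, 18 (19 with all). Every TCT result is therefore given as labelled and, where it matters, also against the WT controls, an alternative planned with earlier results of these data known. Among epithelial markers all 20 of the pan-epithelial list were detected in each group. DSS mouse 8 and IL10 mouse 4 stood apart from their groups. Neutrophil markers (10 genes) summed to 2040 CPM in DSS mouse 8, the highest of all mice, and small-intestinal markers (10 genes) to 278 CPM in IL10 mouse 4, again the highest. Total counts ran from 10725564 to 14977094 per mouse. Levels are CPM, read counts relative to the TMM-scaled library total, and are compared between genes only per kilobase of exon.

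The pi-class genes Gstp1, Gstp2 and Gstp3 lie side by side on chromosome 19 and behaved differently in these mice, as described further on, so the 250 bases before each RefSeq start are shown first, with Gsta3 as 1 of 3 tested members whose windows hold the core of an antioxidant response element. All are 5′ to 3′ on the gene's strand, from RefSeq on GRCm38.p6. Gstp1 is at chr19:4037913-4038162, Gstp2 at chr19:4042222-4042471 and Gstp3 at chr19:4059448-4059697, all on the minus strand, and Gsta3 is at chr1:21240335-21240584 on the plus strand. The Ensembl annotation used for gene positions places the 5′ ends of Gstp1 and Gstp3 inside their windows. It places that of Gstp2 at chr19:4046023, upstream of its window, which then lies within the annotated gene. Capitals mark the letters GCGTG, the core bound by the aryl hydrocarbon receptor and its partner, in Gstp1 and Gstp3, and TGACNNNGC, the core bound by NRF2 and its partners, in Gsta3.
Gstp1: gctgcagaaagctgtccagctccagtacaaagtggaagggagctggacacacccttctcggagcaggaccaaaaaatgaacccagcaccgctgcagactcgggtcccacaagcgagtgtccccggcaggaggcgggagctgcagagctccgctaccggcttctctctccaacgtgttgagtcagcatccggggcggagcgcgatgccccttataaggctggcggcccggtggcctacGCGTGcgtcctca
Gstp2: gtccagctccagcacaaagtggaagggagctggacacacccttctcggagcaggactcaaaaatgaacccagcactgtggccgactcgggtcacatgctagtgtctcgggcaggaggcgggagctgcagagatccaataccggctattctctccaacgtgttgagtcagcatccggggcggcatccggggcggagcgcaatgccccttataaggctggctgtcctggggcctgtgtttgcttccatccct
Gstp3: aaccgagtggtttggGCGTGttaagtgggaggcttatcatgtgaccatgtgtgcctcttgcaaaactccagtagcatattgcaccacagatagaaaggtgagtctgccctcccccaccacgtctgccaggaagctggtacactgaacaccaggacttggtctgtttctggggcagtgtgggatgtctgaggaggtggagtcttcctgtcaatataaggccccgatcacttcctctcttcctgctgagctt
Gsta3: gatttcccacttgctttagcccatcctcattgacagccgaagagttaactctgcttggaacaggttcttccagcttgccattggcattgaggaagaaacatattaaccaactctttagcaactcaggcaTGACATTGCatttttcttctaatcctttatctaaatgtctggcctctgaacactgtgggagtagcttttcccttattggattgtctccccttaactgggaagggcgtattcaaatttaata

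Gstp1 and Gstp2 were alike here, with 208 identical bases in a gapped alignment (83.2% of the window length of 250). Gstp3 matched Gstp1 at 148 bases (59.2%) and Gstp2 at 152 (60.8%), and unrelated windows were not aligned for comparison. GCGTG began 13 bases before the start in Gstp1 and 235 bases before it in Gstp3, and was not in the Gstp2 window on either strand. TGACNNNGC began 121 bases before the start of Gsta3. RefSeq windows of 300 bases (250 before to 50 after the start) were matched for 57 of the 65 members. TGACNNNGC, searched on both strands, was in the windows of 3 of them (5.3%: Gsta3, Gstm5 and Gstm7), against 14% of 27025 genes, and GCGTG in those of 12 (21.1%), against 35.2% of genes. A match describes letters only and is no evidence of binding.

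Most conjugating enzymes that were called were lower in colitis. In TRUC, 2 of the 35 tested members were higher and 17 lower than in the Rag2 controls (edgeR quasi-likelihood test, Benjamini-Hochberg adjusted over 18616 genes, threshold 0.05). Of all genes tested there, 45.8% were called, 22.4% higher and 23.4% lower. In DSS, 2 members were higher and 22 lower, where 34.0% of all genes were called (17.7% higher and 16.3% lower). DNBS gave 2 higher members and none lower, with 6.17% of all genes called (3.95% and 2.21%). Beside that 0, 4 members were lower at an unadjusted p under 0.05 and DESeq2 called 4 lower. In IL10 the calls were mixed, 7 higher and 12 lower, in a comparison that called 53.3% of all genes (27.2% and 26.1%). TCT had 6 higher and 17 lower members against 30.1% of all genes (16.1% and 14%), and anti-CD40 had 1 higher and 11 lower against 21.6% (10.9% and 10.7%).

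Read against those shares, the members' lower calls were a larger part of the members than of all genes in TRUC, DSS, TCT and anti-CD40, and the higher calls a smaller part in TRUC, DSS and anti-CD40. In IL10, 7 of 35 higher and 12 of 35 lower lay closer to the shares of all genes. The 35 members had a median log2 fold change of -0.68 in TRUC, -0.86 in DSS, -0.10 in DNBS, -0.22 in IL10, -0.78 in TCT and -0.57 in anti-CD40, where the median of all genes lay between -0.03 and 0.02. With genes at the counting floor set to their bound, these medians were -0.52, -0.72, -0.10, -0.14, -0.78 and -0.57. Of the 35, 34 were called in at least 1 model. The exception was Sult6b1, which had no call and lay between 0 and 1.2 CPM in every mouse. Levels of 21 members in TRUC did not overlap with the Rag2 controls and were lower, against 29.2% of all genes, as did 22 in DSS (24%), 7 in DNBS (16.9%), 11 in IL10 (28.0%), 19 in TCT (21.7%) and 18 in anti-CD40 (20.4%). In bulk colon RNA, fewer cells that express a gene and less RNA per cell cannot be told apart.

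**Figure D1:**
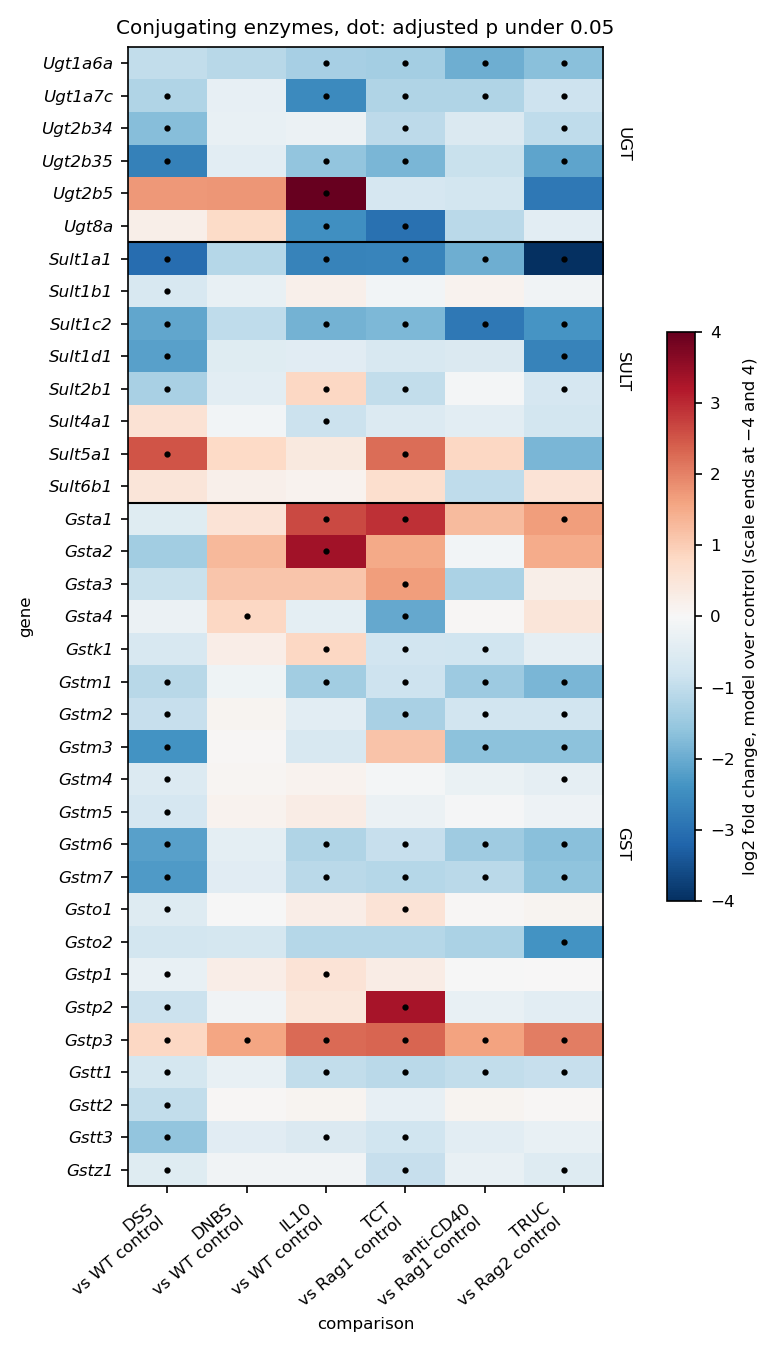
Log2 fold changes of the 35 tested members (rows, by family) in the 6 colitis models against their own controls (columns), with a mark where the adjusted p was under 0.05. Lower calls outnumber higher ones for UGTs, SULTs and the mu class of GSTs in each model but DNBS, and Gstp3 is higher in all 6.

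The effects of the 6 models differed from each other for 31 of the 35 members (F test of equal fold changes, adjusted p under 0.05), in a test that called 60.5% of all genes. Those that did not pass were Sult1c2 (adjusted p = 0.117), Sult6b1 (0.293), Gsto2 (0.492) and Ugt1a6a (0.66). Lower calls in at least 5 models were found for 7 members, Gstm1, Gstm6, Gstm7, Gstt1, Sult1a1, Sult1c2 and Ugt1a7c, and in each the model without a call was DNBS. Of all genes, 2.84% had this. Gstp3 alone was higher in at least 5 models, where 4.08% of all genes were. Calls in both directions were made for 6 members (Gsta4, Gstk1, Gsto1, Gstp1, Gstp2 and Sult2b1), against 7.15% of all genes.

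Lower calls among the UGTs were made in every model but DNBS. The 6 tested UGTs had no higher and 4 lower members in TRUC, 0 and 3 in DSS, 0 and 0 in DNBS, 1 and 4 in IL10, 0 and 5 in TCT, and 0 and 2 in anti-CD40. Where edgeR called 0 higher, 0 were higher at an unadjusted p under 0.05 and 0 by DESeq2, and in DNBS 1 was lower at an unadjusted p under 0.05 and 0 by DESeq2. The 6 together had a median log2 fold change of -1.35 in TRUC, -1.10 in DSS, -0.31 in DNBS, -1.46 in IL10 (-0.78 with genes at the floor set to their bound), -1.27 in TCT and -0.99 in anti-CD40. Ugt2b34 had the highest level per kilobase of the UGTs over all mice, 74.3 CPM per kb, followed by Ugt1a7c (29.2) and Ugt2b35 (6.49). The Ugt1a genes are read from alternative first exons joined to shared ones, and the counts assigned to each depend on how shared exons were treated: 45.4% of the Ugt1a7c exon length lies outside other genes, 49.7% in Ugt1a6a and 17.3% in Ugt1a1, the bilirubin enzyme.

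Ugt1a7c stood at 90.3, 77.7 and 91.1 CPM in the WT controls, at 44.5, 49.5 and 18.5 CPM in DSS, at 65.8, 69.1 and 71.8 CPM in DNBS and at 12.3, 17.1, 20.4 and 9.51 CPM in IL10. TRUC mice had Ugt1a7c levels of 51.4, 43.5, 49.4 and 51.3 CPM, against 87.3, 87 and 85.7 CPM in the Rag2 controls. Against 101, 99.9 and 82 CPM in the Rag1 controls, Ugt1a7c was found at 29.7, 47.8 and 46.7 CPM in TCT and at 39, 39.7 and 45 CPM in anti-CD40. Ugt1a7c, at chr1:88095062-88220002 on GRCm38, belongs to the Ugt1a cluster, whose enzymes act on phenols. All mice of every model lay below their controls, and the IL10 mice were the lowest as a group. It was 5.81-fold lower in IL10 (log2 fold change -2.54 ± 0.24 (SE), adjusted p = 7.52e-08), 2.3-fold lower in DSS (log2 fold change -1.20 ± 0.25 (SE), adjusted p = 0.000764) and 1.77-fold lower in TRUC (log2 fold change -0.83 ± 0.23 (SE), adjusted p = 0.00523). In TCT and anti-CD40 the log2 fold changes were -1.19, adjusted p = 0.000809, and -1.19, adjusted p = 0.00183, and DNBS did not pass (-0.33, adjusted p = 0.424). The fall differed between the models (F test, adjusted p = 6.3e-06).

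Ugt2b enzymes act mainly on steroids, bile acids and fatty acids. Ugt2b35 stood at 34.5, 31.1 and 35.7 CPM in the WT controls, at 10.1, 4.85 and 0.4 CPM in DSS, at 31.6, 19.5 and 24.5 CPM in DNBS and at 11.6, 8.52, 16 and 8.67 CPM in IL10. TRUC mice had Ugt2b35 levels of 6.34, 5.69, 11.5 and 12.2 CPM, against 37.7, 41.2 and 36.4 CPM in the Rag2 controls. Against 41.6, 51.7 and 40.8 CPM in the Rag1 controls, Ugt2b35 was found at 8.03, 15.9 and 13.7 CPM in TCT and at 28.8, 21.7 and 21.9 CPM in anti-CD40. Ugt2b35 was below its controls without overlap in TRUC, DSS, IL10, TCT and anti-CD40, and 1 DNBS mouse lay within the range of the WT controls. It was 6.49-fold lower in DSS (log2 fold change -2.70 ± 0.48 (SE), adjusted p = 0.000196), 4.3-fold lower in TRUC (log2 fold change -2.10 ± 0.43 (SE), adjusted p = 0.000391), 3.56-fold lower in TCT (adjusted p = 0.00377) and 3-fold lower in IL10 (adjusted p = 0.00308). Anti-CD40 did not pass (-0.89, adjusted p = 0.153).

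Ugt2b34 stood at 384, 365 and 395 CPM in the WT controls, at 155, 171 and 28.7 CPM in DSS, at 327, 314 and 289 CPM in DNBS and at 301, 262, 323 and 424 CPM in IL10. TRUC mice had Ugt2b34 levels of 209, 184, 267 and 296 CPM, against 453, 524 and 482 CPM in the Rag2 controls. Against 482, 493 and 480 CPM in the Rag1 controls, Ugt2b34 was found at 238, 265 and 203 CPM in TCT and at 384, 277 and 317 CPM in anti-CD40. All DSS, DNBS, TRUC, TCT and anti-CD40 mice lay below their controls, DSS mouse 8 furthest, whereas the IL10 mice spread from below to above the WT range. Ugt2b34 fell in DSS (log2 fold change -1.69 ± 0.35 (SE), adjusted p = 0.000666), TRUC (log2 fold change -1.02 ± 0.31 (SE), adjusted p = 0.0101) and TCT (log2 fold change -1.04 ± 0.34 (SE), adjusted p = 0.0224). In IL10 its log2 fold change was -0.22, adjusted p = 0.575, and in anti-CD40 -0.57, adjusted p = 0.232. Left out singly, some mice decided a call: Ugt2b34 in TCT without Rag1 control mouse 3 or TCT mouse 5 (log2 fold changes -1.02 to -0.94) did not pass.

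The other 3 tested UGTs were near the detection limit. Ugt1a6a, an enzyme of flat phenols, ranged from 0.208 to 2.43 CPM and was lower in TRUC (-1.68, adjusted p = 0.00206), IL10 (-1.34, adjusted p = 0.00806), TCT (-1.35, adjusted p = 0.0226) and anti-CD40 (-1.96, adjusted p = 0.0044). Ugt8a, which makes galactosylceramide for myelin, was at 0, 0.208, 0 and 0 CPM in IL10 and 0.262, 0 and 0 CPM in TCT, against 0.381, 0.133 and 0.41 CPM and 0.648, 0.736 and 0.946 CPM in their controls. IL10 and TCT had at most 3 counts in every mouse, so Ugt8a was at least 1.09-fold lower in IL10 (adjusted p = 0.0396) and at least 2.93-fold lower in TCT (adjusted p = 0.00819), with the floor of 3 counts taken in each library. The single higher call was Ugt2b5 in IL10 (adjusted p = 0.00141). It rested on IL10 mouse 4, at 19.9 CPM, where the other 3 IL10 mice had at most 0.514 CPM and the WT controls none, and without that mouse the gene was below the filter. Ugt2b5 shares 41.7% of its 50-base exon windows with other genes. Of these low calls, Ugt1a6a in TCT without Rag1 control mouse 3 or TCT mouse 3 or 5 (log2 fold changes -1.38 to -1.19) and Ugt8a in IL10 without IL10 mouse 1, 3 or 4 or WT control mouse 1 or 4 (log2 fold changes -2.25 to -2.05) did not pass.

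Among the sulfotransferases, lower calls were made in the same 5 models. The 8 tested SULTs had 0 higher and 4 lower members in TRUC, 1 and 5 in DSS, 0 and 0 in DNBS, 1 and 3 in IL10, 1 and 3 in TCT, and 0 and 2 in anti-CD40. The same held for higher SULTs in the models with 0 (0 at an unadjusted p under 0.05, 0 by DESeq2), while in DNBS 2 were lower at an unadjusted p under 0.05 and 3 by DESeq2. Their median log2 fold change was -1.27 in TRUC (-0.70 with genes at the floor set to their bound), -0.97 in DSS, -0.36 in DNBS, -0.15 in IL10, -0.59 in TCT and -0.49 in anti-CD40. Per kilobase, Sult1a1 (74.9 CPM per kb over all mice), Sult1b1 (65.4), Sult1d1 (56.6) and Sult1c2 (8.61) were highest, followed by Sult2b1 (7.2).

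Sult1a1 stood at 221, 200 and 238 CPM in the WT controls, at 35, 36.2 and 7.19 CPM in DSS, at 129, 73.9 and 99.1 CPM in DNBS and at 33.2, 40.5, 43.3 and 22.2 CPM in IL10. TRUC mice had Sult1a1 levels of 12.6, 9.16, 11.4 and 15.5 CPM, against 251, 264 and 236 CPM in the Rag2 controls. Against 299, 251 and 267 CPM in the Rag1 controls, Sult1a1 was found at 54.2, 54.7 and 21.9 CPM in TCT and at 78.8, 28.4 and 106 CPM in anti-CD40. Sult1a1, at chr7:126672865-126676432, is the main phenol sulfotransferase. No mouse of any model overlapped with its controls, and the TRUC mice were the lowest group. The gene was 20.5-fold lower in TRUC (log2 fold change -4.36 ± 0.44 (SE), adjusted p = 1.27e-07), the largest fall of any member in that model, 8.37-fold lower in DSS (log2 fold change -3.06 ± 0.46 (SE), adjusted p = 3.28e-05) and 6.31-fold lower in IL10 (log2 fold change -2.66 ± 0.41 (SE), adjusted p = 1.5e-05). In TCT it was 6.25-fold lower (adjusted p = 8.07e-05) and in anti-CD40 3.84-fold lower (adjusted p = 0.00302). DNBS gave a log2 fold change of -1.13, adjusted p = 0.106, which did not pass although its 3 mice lay below the WT range.

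Sult1c2 also acts on small phenols. Sult1c2 stood at 40.8, 31.5 and 28.7 CPM in the WT controls, at 9.69, 13.1 and 0.879 CPM in DSS, at 20.8, 16.5 and 12.4 CPM in DNBS and at 11.1, 13.8, 7.72 and 3.97 CPM in IL10. TRUC mice had Sult1c2 levels of 9.06, 6.13, 8.15 and 7.57 CPM, against 42.5, 39 and 39 CPM in the Rag2 controls. Against 33.8, 15.9 and 19.5 CPM in the Rag1 controls, Sult1c2 was found at 5.76, 10.7 and 3.52 CPM in TCT and at 3.1, 2.48 and 3.8 CPM in anti-CD40. As for Sult1a1, every mouse of every model was below its controls. Falls were 7.32-fold in anti-CD40 (log2 fold change -2.87 ± 0.55 (SE), adjusted p = 0.000914), 5.18-fold in TRUC (log2 fold change -2.37 ± 0.47 (SE), adjusted p = 0.000315), 4.24-fold in DSS (log2 fold change -2.08 ± 0.51 (SE), adjusted p = 0.00297), 3.67-fold in IL10 and 3.45-fold in TCT (adjusted p = 0.00175 and 0.0107). In DNBS the log2 fold change was -1.02, adjusted p = 0.201. The call was lost for Sult1c2 in TCT without Rag1 control mouse 2 or TCT mouse 5 (log2 fold changes -1.48 to -1.40).

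Sult1d1, which sulfates catecholamines in the mouse, fell in TRUC and DSS. Sult1d1 stood at 225, 241 and 235 CPM in the WT controls, at 50.1, 92.2 and 13.7 CPM in DSS, at 178, 169 and 149 CPM in DNBS and at 158, 162, 159 and 207 CPM in IL10. TRUC mice had Sult1d1 levels of 32.7, 21.3, 33 and 45.9 CPM, against 203, 239 and 193 CPM in the Rag2 controls. Against 175, 163 and 193 CPM in the Rag1 controls, Sult1d1 was found at 155, 115 and 69.9 CPM in TCT and at 134, 72.8 and 150 CPM in anti-CD40. All mice of the 6 models lay below their own controls, the TRUC mice and DSS mouse 8 furthest. The fall was 6.36-fold in TRUC (log2 fold change -2.67 ± 0.37 (SE), adjusted p = 7.78e-06) and 4.48-fold in DSS (log2 fold change -2.16 ± 0.40 (SE), adjusted p = 0.000268). The log2 fold changes of the other 4 models lay between -0.64 and -0.45 and did not pass. Against the WT controls, however, Sult1d1 was called in TCT. In IL10 it was called with libraries scaled to the summed pan-epithelial markers. It was also called there with same-numbered mice alone, with or without the number as a block. Sult1b1, an enzyme of thyroid hormones and phenols, had 120, 174 and 71.9 CPM in DSS and 202, 194 and 180 CPM in the WT controls, which do not overlap. It fell in DSS alone (log2 fold change -0.65 ± 0.21 (SE), adjusted p = 0.0179). Sult1b1 in DSS without DSS mouse 8 or WT control mouse 1 (log2 fold changes -0.62 to -0.38) did not pass. Nor did it with libraries scaled to the summed pan-epithelial markers (-0.29, adjusted p = 0.173).

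Of the minor SULTs, Sult4a1, a brain form without a known substrate, was lower in IL10 (-0.86, adjusted p = 0.0406) with overlapping mice. Sult5a1 was at 1.51, 1.02 and 1.92 CPM in DSS and 0.152, 0.2 and 0.41 CPM in the WT controls, and rose there (log2 fold change 2.52 ± 0.65 (SE), adjusted p = 0.00434). In TCT its 0.436, 0.342 and 1.2 CPM stood against Rag1 controls that all had at most 3 counts, at least 2.75-fold higher (adjusted p = 0.0394). These levels were a few counts per mouse. Leaving out a mouse ended the call for Sult4a1 in IL10 without IL10 mouse 1, 2 or 3 or WT control mouse 2 or 4 (log2 fold changes -0.90 to -0.67). Left out 1 at a time, single mice decided Sult5a1 in TCT without Rag1 control mouse 2 or 4 or TCT mouse 5 (log2 fold changes 1.49 to 2.03), which then did not pass. With pan-epithelial scaling Sult5a1 in TCT had 2.11, adjusted p = 0.0654.

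**Figure D2:**
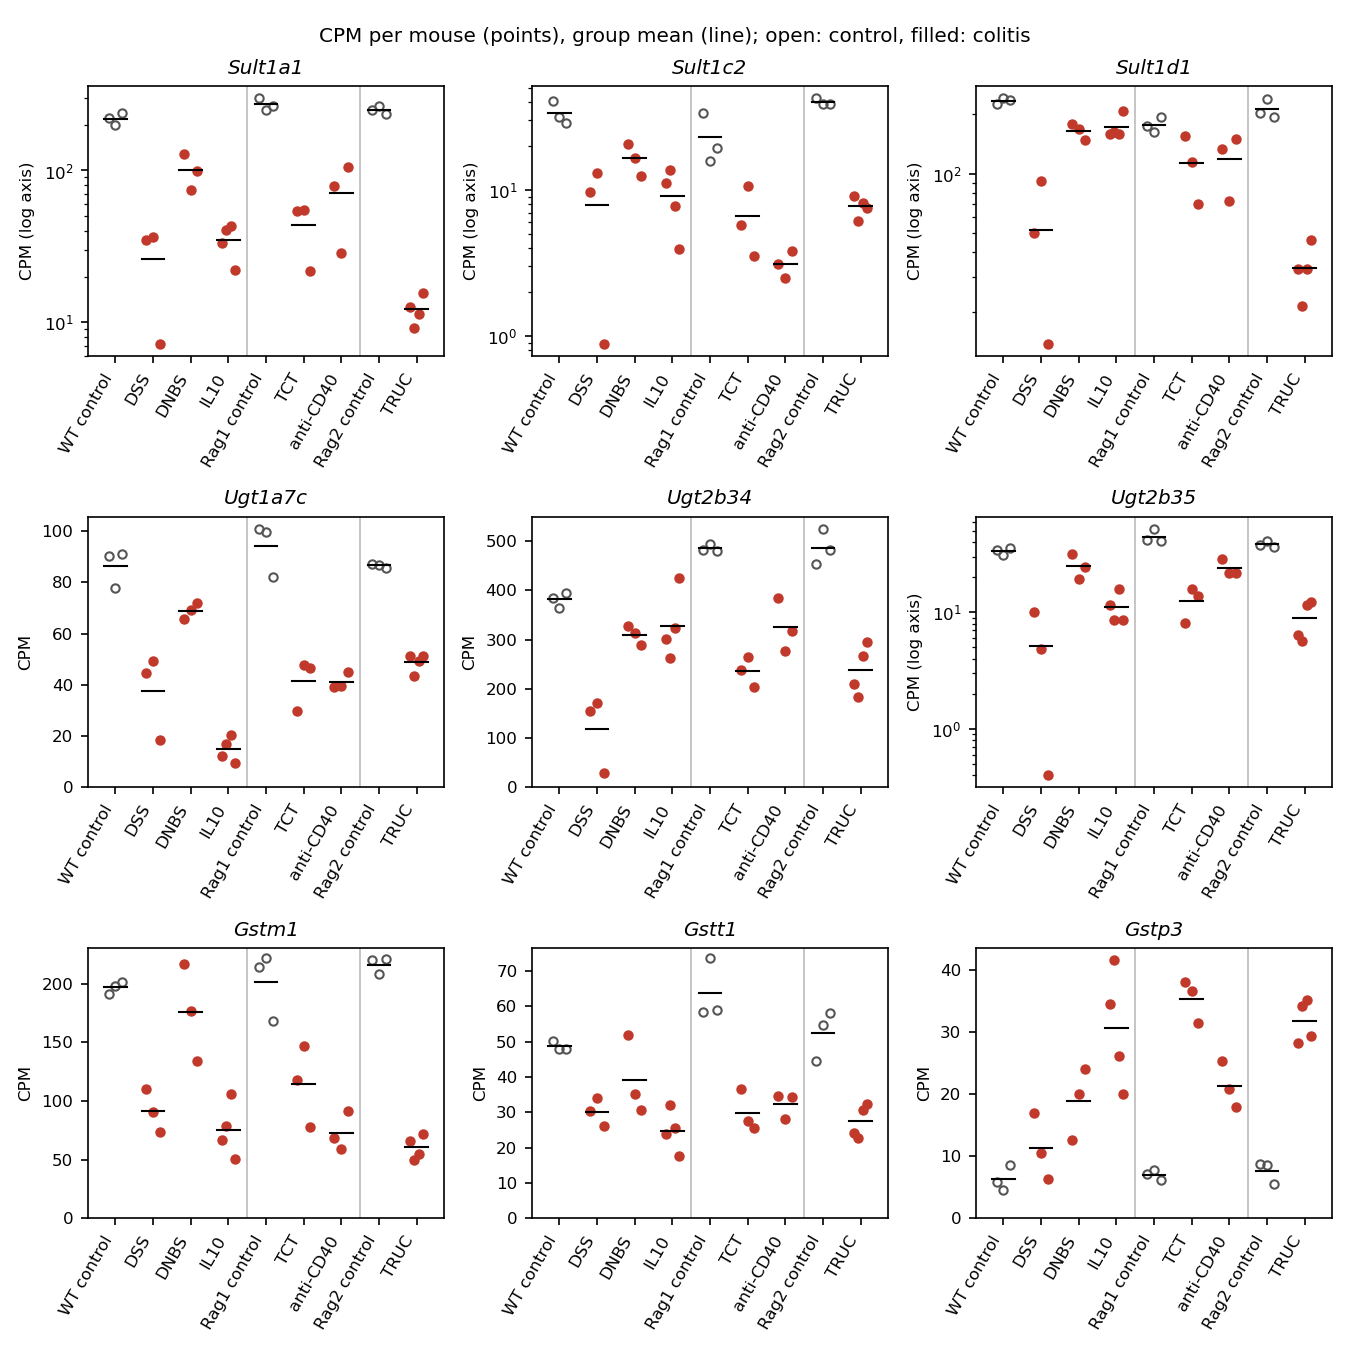
Level of named members in each mouse (CPM), with mice grouped as 9 groups and each point a mouse. The axis is logarithmic for Sult1a1, Sult1c2, Sult1d1 and Ugt2b35 and linear for the other members. Sult1a1 and Sult1c2 lie below their own controls in every mouse of every model, and Gstp3 lies above them in all but the DSS model.

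The GSTs, taken as a family, did not move in a single direction. Among 21 tested, 2 were higher and 9 lower in TRUC, 1 and 14 in DSS, 2 and 0 in DNBS, 5 and 5 in IL10, 5 and 9 in TCT, and 1 and 7 in anti-CD40. In DNBS 1 GST was lower at an unadjusted p under 0.05 and 1 by DESeq2. Median log2 fold changes were -0.36 in TRUC, -0.72 in DSS (-0.69 with genes at the floor set to their bound), 0.06 in DNBS, 0.11 in IL10, -0.34 in TCT and -0.30 in anti-CD40. When libraries were scaled to the sum of the pan-epithelial markers, the DNBS and IL10 medians became -0.07 and -0.48. The classes differed: mu and theta members were mostly lower, alpha and pi members were higher or mixed.

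The mu class holds broad conjugators of electrophiles. Gstm1 stood at 191, 198 and 202 CPM in the WT controls, at 110, 90.7 and 73.4 CPM in DSS, at 217, 177 and 134 CPM in DNBS and at 66.5, 78.5, 106 and 51 CPM in IL10. TRUC mice had Gstm1 levels of 66.3, 49.9, 54.9 and 72.3 CPM, against 220, 208 and 221 CPM in the Rag2 controls. Against 214, 222 and 168 CPM in the Rag1 controls, Gstm1 was found at 118, 147 and 77.7 CPM in TCT and at 68.9, 58.8 and 91.7 CPM in anti-CD40. Gstm1 was below its controls without overlap in TRUC, DSS, IL10, TCT and anti-CD40, while DNBS mice lay on both sides of the WT range. It was 3.55-fold lower in TRUC (log2 fold change -1.83 ± 0.22 (SE), adjusted p = 1.76e-06), 2.75-fold lower in anti-CD40 (log2 fold change -1.46 ± 0.24 (SE), adjusted p = 0.000238), 2.6-fold lower in IL10 (adjusted p = 2.48e-05), 2.15-fold lower in DSS (adjusted p = 0.00106) and 1.76-fold lower in TCT (adjusted p = 0.011). The call was lost for Gstm1 in TCT without TCT mouse 5 (log2 fold change -0.60).

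Gstm6 and Gstm7 were called lower in the same 5 models, at lower levels per mouse. TRUC mice had Gstm6 levels of 7, 6.93, 6.87 and 8.95 CPM, against 22.8, 24.1 and 23.8 CPM in the Rag2 controls. TRUC mice had Gstm7 levels of 6.12, 4.18, 5.04 and 7.16 CPM, against 18, 16.3 and 17 CPM in the Rag2 controls. Both were below their controls in each of the 5 models without overlap. Gstm6 had log2 fold changes of -1.66 in TRUC, -2.17 in DSS, -1.20 in IL10, -0.92 in TCT and -1.43 in anti-CD40 (adjusted p from 2.49e-05 to 0.0222), and Gstm7 had -1.60, -2.27, -1.07, -1.15 and -1.09 (adjusted p from 0.000184 to 0.044). Gstm3, at 11.3, 5.33 and 0.959 CPM in DSS against 28.9, 32.6 and 32.5 CPM in the WT controls, was 5.28-fold lower there (log2 fold change -2.40 ± 0.50 (SE), adjusted p = 0.000723), and lower in TRUC and anti-CD40 (-1.64, adjusted p = 0.012, and -1.65, adjusted p = 0.0288). In TCT it was 1.14, adjusted p = 0.0777. Gstm2 was lower in TRUC, DSS, TCT and anti-CD40, with log2 fold changes of -0.77, -0.93, -1.31 and -0.77. Gstm4 was lower in TRUC and DSS (-0.37 and -0.55), and Gstm5, known from testis and brain, in DSS (-0.68). Single mice decided some of these calls. Gstm6 in TCT without Rag1 control mouse 3 or TCT mouse 5 (log2 fold changes -0.77 to -0.74), Gstm7 in IL10 without WT control mouse 4 (log2 fold change -0.95) and Gstm7 in TCT without Rag1 control mouse 2 or 3 or TCT mouse 5 (log2 fold changes -1.09 to -0.88) did not pass. It was lost, too, for Gstm7 in anti-CD40 without Rag1 control mouse 2 or 3 or anti-CD40 mouse 6 or 7 (log2 fold changes -1.17 to -0.90), Gstm3 in anti-CD40 without Rag1 control mouse 3 or anti-CD40 mouse 7 (log2 fold changes -1.38 to -1.14), Gstm4 in TRUC without Rag2 control mouse 1 or 4 or TRUC mouse 3 (log2 fold changes -0.36 to -0.33) and Gstm4 in DSS without DSS mouse 8 (log2 fold change -0.39). Pan-epithelial scaling ended the DSS calls of Gstm2 (-0.52, adjusted p = 0.0761), Gstm4 (-0.15, adjusted p = 0.484) and Gstm5 (-0.28, adjusted p = 0.238).

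Theta-class enzymes act on small halogenated compounds. Gstt1 stood at 50.1, 48 and 48 CPM in the WT controls, at 30.4, 34 and 26.1 CPM in DSS, at 52, 35.1 and 30.6 CPM in DNBS and at 23.9, 32.1, 25.6 and 17.7 CPM in IL10. TRUC mice had Gstt1 levels of 24.2, 22.8, 30.6 and 32.3 CPM, against 44.4, 54.7 and 58.1 CPM in the Rag2 controls. Against 58.5, 73.7 and 58.9 CPM in the Rag1 controls, Gstt1 was found at 36.5, 27.6 and 25.7 CPM in TCT and at 34.5, 28.2 and 34.4 CPM in anti-CD40. Apart from DNBS, where 1 mouse was above the WT range, no model overlapped with its controls. Gstt1 fell in TRUC (log2 fold change -0.93 ± 0.19 (SE), adjusted p = 0.000327), IL10 (log2 fold change -0.97 ± 0.19 (SE), adjusted p = 0.000161), TCT (log2 fold change -1.09 ± 0.20 (SE), adjusted p = 0.000201), anti-CD40 (adjusted p = 0.0015) and DSS (adjusted p = 0.00968), each by 1.61-fold to 2.13-fold. Leaving out a mouse ended the call for Gstt1 in DSS without DSS mouse 8 (log2 fold change -0.60). So did pan-epithelial scaling (-0.28, adjusted p = 0.324). Gstt3 was lower in DSS, IL10 and TCT (-1.59, -0.58 and -0.79), and Gstt2 in DSS alone (-1.0, adjusted p = 0.00111).

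Alpha-class enzymes, which reduce lipid hydroperoxides, rose in some models. Gsta1 stood at 7.01, 2.8 and 4.67 CPM in the WT controls, at 4.72, 2.73 and 2.8 CPM in DSS, at 5.85, 5.81 and 9.63 CPM in DNBS and at 27, 52.7, 25.2 and 15.2 CPM in IL10. TRUC mice had Gsta1 levels of 6.41, 8.27, 6.68 and 10.3 CPM, against 3.36, 1.3 and 2.87 CPM in the Rag2 controls. Against 6.32, 1.33 and 0.86 CPM in the Rag1 controls, Gsta1 was found at 12.8, 32.2 and 19.2 CPM in TCT and at 1.41, 14.4 and 4.45 CPM in anti-CD40. The IL10, TRUC and TCT mice were all above their controls, while DSS, DNBS and anti-CD40 mice overlapped with them. Gsta1 was 7.54-fold higher in TCT (log2 fold change 2.91 ± 0.66 (SE), adjusted p = 0.00167), 6.23-fold higher in IL10 (log2 fold change 2.64 ± 0.62 (SE), adjusted p = 0.0011) and 3.16-fold higher in TRUC (log2 fold change 1.66 ± 0.64 (SE), adjusted p = 0.0366). Of its 50-base exon windows 90.5% are also found in Gsta2 or the predicted genes Gm3776 and Gm10639, so its counts are uncertain. Gsta2, at 1.26, 4.78, 1.89 and 0.627 CPM in IL10 against 0.381, 0.133 and 0.082 CPM in the WT controls, rose there (log2 fold change 3.35 ± 0.80 (SE), adjusted p = 0.00128). It shares 49.8% of its windows with Gsta1, Gm10639 and other genes, so its counts are uncertain too. Gsta3 was at 43.7, 65.5 and 53.5 CPM in TCT and 17.5, 20.9 and 12.9 CPM in the Rag1 controls and rose in TCT (log2 fold change 1.66 ± 0.60 (SE), adjusted p = 0.0389). In anti-CD40 its 10, 6.51 and 4.95 CPM were below those controls without passing (-1.27, adjusted p = 0.154). Left out 1 at a time, single mice decided Gsta1 in TRUC without Rag2 control mouse 1, 2 or 4 or TRUC mouse 3 or 5 (log2 fold changes 1.34 to 1.92) and Gsta3 in TCT without Rag1 control mouse 2, 3 or 4 or TCT mouse 3 or 5 (log2 fold changes 1.5 to 1.84), which then did not pass. Neither passed with pan-epithelial scaling (1.46, adjusted p = 0.0631, and 1.52, adjusted p = 0.07).

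Gstp3 was the 1 member called higher in all 6 models. Gstp3 stood at 5.79, 4.59 and 8.61 CPM in the WT controls, at 16.9, 10.5 and 6.39 CPM in DSS, at 12.6, 20.1 and 24 CPM in DNBS and at 34.6, 41.7, 26.1 and 20 CPM in IL10. TRUC mice had Gstp3 levels of 28.2, 34.2, 35.2 and 29.3 CPM, against 8.76, 8.64 and 5.58 CPM in the Rag2 controls. Against 7.21, 7.8 and 6.11 CPM in the Rag1 controls, Gstp3 was found at 38.1, 36.6 and 31.5 CPM in TCT and at 25.3, 20.9 and 18 CPM in anti-CD40. Levels were above the controls without overlap in every model but DSS, where mouse 8 fell within the WT range. Gstp3 was 5.02-fold higher in TCT (log2 fold change 2.33 ± 0.31 (SE), adjusted p = 3.86e-06), 4.85-fold higher in IL10 (log2 fold change 2.28 ± 0.30 (SE), adjusted p = 3e-06), 4.14-fold higher in TRUC (log2 fold change 2.05 ± 0.30 (SE), adjusted p = 1.24e-05), 3.03-fold higher in anti-CD40 (log2 fold change 1.60 ± 0.31 (SE), adjusted p = 0.000904), 2.99-fold higher in DNBS (log2 fold change 1.58 ± 0.31 (SE), adjusted p = 0.00525) and 1.79-fold higher in DSS (log2 fold change 0.84 ± 0.31 (SE), adjusted p = 0.0369). The call was lost for Gstp3 in DSS without DSS mouse 5 or WT control mouse 1 or 2 (log2 fold changes 0.41 to 0.79). None of its 50-base exon windows is found in another gene. The size of the rise differed between models (F test, adjusted p = 0.0017).

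Its neighbour Gstp1, chr19:4035407-4037985, the main pi-class enzyme of the colon and at 99.9 CPM per kb the second highest GST here after Gsto1 (161), moved little. Gstp1 had 188, 205, 196 and 180 CPM in IL10 and 115, 105 and 96.9 CPM in DSS, against 123, 118 and 151 CPM in the WT controls. All IL10 mice were above and all DSS mice below the WT range. It rose in IL10 (log2 fold change 0.55 ± 0.11 (SE), adjusted p = 0.000267) and fell in DSS (log2 fold change -0.30 ± 0.12 (SE), adjusted p = 0.0485), but with libraries scaled to the pan-epithelial markers both directions turned, to log2 fold changes of -0.05, adjusted p = 0.751, and 0.13, adjusted p = 0.431. Gstp1 shares 33.7% and Gstp2 54.3% of its 50-base exon windows with other genes, so reads may be split between them. Gstp1 in DSS without DSS mouse 6 or 8 or WT control mouse 1 or 4 (log2 fold changes -0.34 to -0.19) did not pass.

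Gstk1, a kappa-class enzyme of mitochondria and peroxisomes, was at 37.5, 40.1, 51.5 and 95.5 CPM in IL10 against 33.7, 28.7 and 33 CPM in the WT controls, and mouse 4 held the highest value. It rose there (log2 fold change 0.82 ± 0.26 (SE), adjusted p = 0.012). Against 41.8, 39.1 and 38.5 CPM in the Rag1 controls, Gstk1 was found at 24.9, 23.9 and 20.8 CPM in TCT and at 20.6, 21.1 and 27.2 CPM in anti-CD40. The mice of both models were below the Rag1 controls, and the gene was lower in TCT and anti-CD40 (-0.78, adjusted p = 0.039, and -0.79, adjusted p = 0.0459). Gstz1, which acts in tyrosine breakdown, was lower in TRUC, DSS and TCT (-0.52, adjusted p = 0.00612, -0.49, adjusted p = 0.0201, and -0.91, adjusted p = 0.000139). Gsto2, near 1 CPM, was lower in TRUC (-2.39, adjusted p = 0.00247), where mouse 5 had no count. Leaving out a mouse ended the call for Gstk1 in IL10 without IL10 mouse 4 or WT control mouse 2 (log2 fold changes 0.43 to 0.74), Gstk1 in TCT without Rag1 control mouse 2, 3 or 4 or TCT mouse 1, 3 or 5 (log2 fold changes -0.83 to -0.70), Gstk1 in anti-CD40 without Rag1 control mouse 2, 3 or 4 or anti-CD40 mouse 6 or 7 (log2 fold changes -0.82 to -0.72) and Gstz1 in DSS without DSS mouse 8 or WT control mouse 1 (log2 fold changes -0.48 to -0.35). With pan-epithelial scaling the IL10 rise of Gstk1 became 0.16, adjusted p = 0.531, and the DSS fall of Gstz1 became -0.09, adjusted p = 0.685, and both calls ended.

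For 6 members the WT controls differed from both Rag control groups. Gsta4, Gstm2 and Sult2b1 were lower, and Gstm3, Gsto1 and Gstp2 higher, in the WT controls than in the Rag2 controls (6 of 35, with 8.11% of all genes called, 4.86% higher and 3.25% lower), and the Rag1 controls differed from the WT controls in the same 6 (10.9% of all genes, 4.77% higher and 6.18% lower). Between Rag1 and Rag2 controls no member was called (edgeR), with 0 at an unadjusted p under 0.05 and 1 by DESeq2, and 0.124% of all genes were called, 0.0698% higher and 0.0537% lower. These 6 differ along the same division as H2-Ea-ps among the controls. Levels in TCT were in or nearer the WT range for Gsta4, Gstm2, Gsto1, Gstp2 and Sult2b1, whereas for Gstm3 the TCT mice, at 19.5, 24.2 and 12.1 CPM, lay below the WT controls (28.9, 32.6 and 32.5 CPM), and mouse 5 within the range of the Rag1 controls (6.48, 13.4 and 5.33 CPM). Against 0.891, 1.84 and 1.46 CPM in the Rag1 controls, Gstp2 was found at 11.5, 20.7 and 9.63 CPM in TCT and at 1.41, 0.942 and 1.08 CPM in anti-CD40. In WT controls it was at 8.38, 8.32 and 11.9 CPM and in the Rag2 controls at 1.06, 1.15 and 1.06 CPM. TCT mice lay among or just above the WT controls and far above the Rag1 controls.

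As labelled, Gstp2 was 9.88-fold higher in TCT (log2 fold change 3.30 ± 0.37 (SE), adjusted p = 3.45e-07), and against the WT controls its log2 fold change was 0.55, adjusted p = 0.193, which did not pass. Against 122, 142 and 125 CPM in the Rag1 controls, Gsta4 was found at 28.3, 36.9 and 28 CPM in TCT and at 137, 122 and 141 CPM in anti-CD40. In the WT controls Gsta4, an enzyme that removes 4-hydroxynonenal, was at 37, 38.1 and 45.1 CPM. Its fall in TCT (log2 fold change -2.06 ± 0.25 (SE), adjusted p = 8.34e-07) became -0.37, adjusted p = 0.253 against the WT controls. Gsto1, which reduces dehydroascorbate, rose in TCT as labelled (log2 fold change 0.55 ± 0.12 (SE), adjusted p = 0.00148) and had -0.06, adjusted p = 0.759, against the WT controls, the opposite sign without a call. Sult2b1, the cholesterol sulfotransferase, fell as labelled (log2 fold change -0.98 ± 0.23 (SE), adjusted p = 0.00243) and likewise had 0.32, adjusted p = 0.315, against them. Gstm2 went from -1.31, adjusted p = 2.2e-05, to -0.12, adjusted p = 0.688. Gstm3, not called in TCT as labelled, had -0.75, adjusted p = 0.229.

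Of the 23 TCT calls, 12 were kept in their direction with the WT controls in place, and 11 were not. Beside the 5 above, those not kept were Ugt2b34 (-0.70, adjusted p = 0.12), Ugt8a (-1.66, adjusted p = 0.186), Sult5a1 (1.35, adjusted p = 0.153), Gstm7 (-1.0, adjusted p = 0.0505), Gsta3 (1.14, adjusted p = 0.145) and Gstk1 (-0.45, adjusted p = 0.227). Those kept include Gstp3 (log2 fold change 2.49, adjusted p = 6.5e-06), Sult1a1 (-2.33, adjusted p = 0.00046), Sult1c2 (-2.33, adjusted p = 0.00186), Ugt1a7c (-1.06, adjusted p = 0.00277) and Gsta1 (2.15, adjusted p = 0.0124). A further 3 members, not called as labelled, were called against the WT controls, namely Gsta2, Gstp1 and Sult1d1. Genotype, strain and model cannot be told apart in TCT. The F test between models still passed with the WT controls used for TCT in Gstp2 (adjusted p = 0.0079, against 1.82e-07 as labelled) and Gsta4 (0.000422, against 6.15e-07). Of the 31 members that passed as labelled it was lost for Gstt1 alone (0.0563, against 0.0416). Without DSS mouse 8 and IL10 mouse 4 it was also lost for Gstt1 (0.0588), and passed for Sult1c2 (0.0103). Ugt2b5, which passed as labelled (0.00102), was below the filter there and could not be tested.

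**Figure D3:**
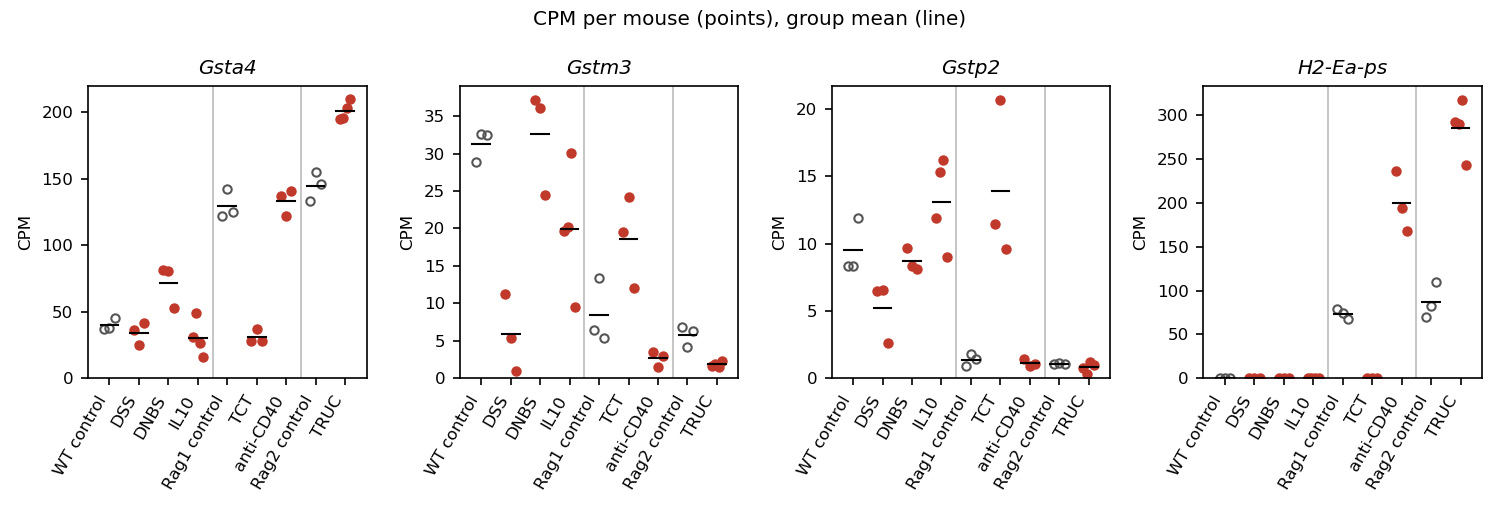
Level in each mouse (CPM, linear axis) of H2-Ea-ps and of Gsta4, Gstm3 and Gstp2, by group, with controls open and colitis models filled. Gsta4, Gstm3 and Gstp2 are among the 6 members that differ between the WT controls and both Rag control groups. TCT mice lie in or near the WT range for each but Gstm3. There they lie below it and 1 of them is within the Rag1 control range.

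Away from TCT, Gsta4 and Sult2b1 also changed against matched controls. Gsta4 rose in DNBS, at 81.1, 81 and 52.8 CPM against 37, 38.1 and 45.1 CPM (log2 fold change 0.84 ± 0.24 (SE), adjusted p = 0.0378). Sult2b1 fell in DSS (log2 fold change -1.29 ± 0.25 (SE), adjusted p = 0.000355) and TRUC (log2 fold change -0.68 ± 0.21 (SE), adjusted p = 0.0121) and rose in IL10 (log2 fold change 0.83 ± 0.22 (SE), adjusted p = 0.00354). Its levels were 21.2, 25.2, 31.6 and 39.6 CPM in IL10, 5.97, 8.34 and 5.99 CPM in DSS and 14.3, 12.5 and 23 CPM in the WT controls. IL10 mice overlapped with the WT range and DSS mice did not. Gsto1 fell in DSS (log2 fold change -0.53 ± 0.12 (SE), adjusted p = 0.00192), and so did Gstp2 (log2 fold change -0.86 ± 0.33 (SE), adjusted p = 0.045). Left out 1 at a time, single mice decided Gsta4 in DNBS without DNBS mouse 11 or 14 or WT control mouse 1, 2 or 4 (log2 fold changes 0.74 to 0.93), Sult2b1 in TRUC without Rag2 control mouse 4 (log2 fold change -0.58) and Gstp2 in DSS without DSS mouse 8 or WT control mouse 1, 2 or 4 (log2 fold changes -0.95 to -0.54), which then did not pass. Pan-epithelial scaling ended the calls of Sult2b1 in IL10 (0.22, adjusted p = 0.33), Gsto1 in DSS (-0.12, adjusted p = 0.453), Gstp2 in DSS (-0.46, adjusted p = 0.261) and Gsta4 in DNBS (0.72, adjusted p = 0.129).

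Summed over its members, the UGT family stood at 504 ± 24.7 CPM (SD, n = 3) in the WT controls and at 163 ± 98.4 in DSS, 362 ± 77.5 in IL10 (n = 4) and 406 ± 20.5 in DNBS, as values without a test. It was 615 ± 37.1 CPM in the Rag2 controls and 299 ± 57.5 in TRUC (n = 4), and 628 ± 21.5 in the Rag1 controls, 291 ± 34.4 in TCT and 393 ± 57.2 in anti-CD40. The SULT sum was 702 ± 14.7 in the WT controls, 225 ± 111 in DSS, 456 ± 33.5 in DNBS and 471 ± 41.7 in IL10. For the other models it was 273 ± 40.3 in TRUC against 758 ± 48.1, and 351 ± 94.1 in TCT and 430 ± 93.4 in anti-CD40 against 694 ± 58.6. The GST sum spread less between groups, from 730 ± 158 in DSS to 1330 ± 118 in the Rag1 controls, with 1210 ± 42.5 in the WT controls and 1230 ± 134 in IL10. These sums weight abundant genes most: Ugt2b34, Sult1a1, Sult1b1, Sult1d1, Gsto1 and Gstp1.

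**Figure D4:**
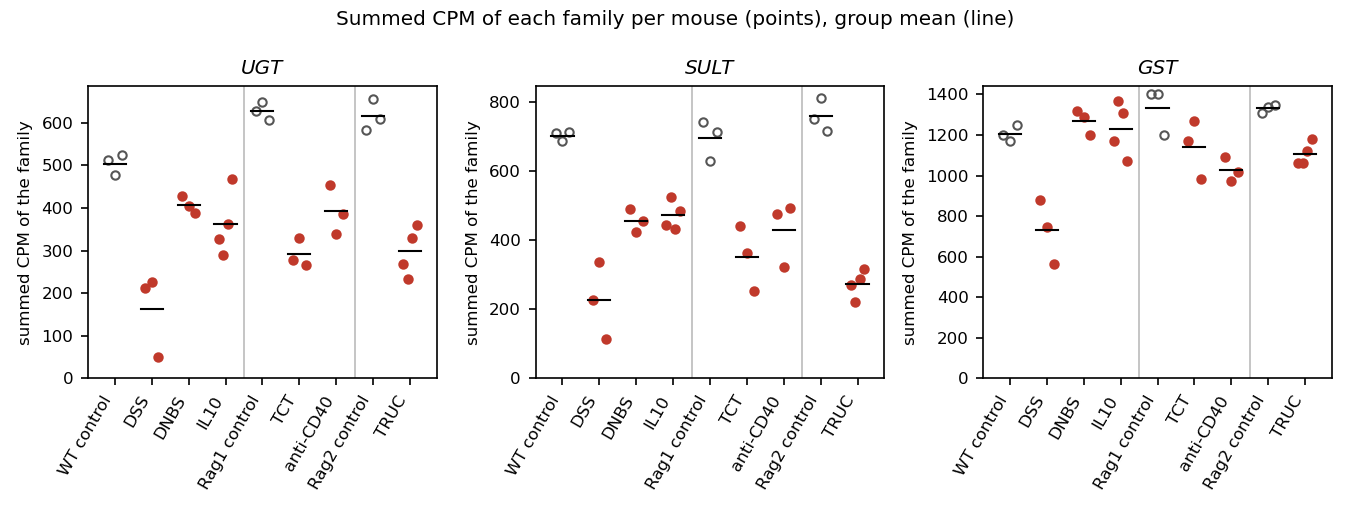
Summed level of all UGT, SULT and GST members in each mouse (CPM, linear axis from 0), by group. The UGT and SULT sums are lowest in DSS, with DSS mouse 8 at the bottom, and the GST sums of the DSS mice lie below those of all other mice.

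The lists around donor supply, which also hold genes that do not supply a donor, such as Gusb, did not follow a single direction. In the list for glucuronic acid (8 genes) 3 were higher and 1 lower in TRUC, 1 and 2 in DSS, 1 and 0 in DNBS, 4 and 0 in IL10, 1 and 2 in TCT, and 2 and 2 in anti-CD40. Gusb, the glucuronidase that removes glucuronic acid in lysosomes, was higher in all 6 models, by log2 fold changes from 0.62 in DSS to 1.27 in IL10. Ugdh, named here after its values were seen, makes UDP-glucuronic acid. It was at 72.3 to 103 CPM in TRUC and 206 to 236 CPM in the Rag2 controls, and was lower in TRUC (log2 fold change -1.31 ± 0.22 (SE), adjusted p = 7.67e-05), DSS (-1.68), TCT (-1.06) and anti-CD40 (-0.90). For the sulfate donor list (9 tested genes) the counts were 3 and 3 in TRUC, 0 and 4 in DSS, 0 and 0 in DNBS, 3 and 2 in IL10, 0 and 3 in TCT and 0 and 1 in anti-CD40. Papss1, which makes PAPS, was lower in 5 models, at -0.57 in TRUC, -1.86 in DSS, -1.03 in IL10, -0.54 in TCT and -0.74 in anti-CD40. Slc26a2, a sulfate transporter also chosen after its values were seen, was lower in TRUC (-2.42), DSS (-1.31), IL10 (-1.66) and TCT (-1.71).

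Glutathione supply and the NRF2 list had mostly higher calls in TRUC and IL10. Of 21 genes of glutathione supply and turnover, 16 were higher and 1 lower in TRUC, 5 and 3 in DSS, 1 and 0 in DNBS, 15 and 0 in IL10, 7 and 1 in TCT, and 7 and 0 in anti-CD40, to be read against the shares of all genes called higher given above. The NRF2 list (16 tested genes, 3 of them also in the glutathione list) had 11 and 0 in TRUC, 6 and 1 in DSS, 4 and 0 in DNBS, 13 and 0 in IL10, 6 and 1 in TCT, and 4 and 1 in anti-CD40. Hmox1, which degrades heme, was higher in all 6 models, from 1.18 in anti-CD40 to 3.33 in DSS. Slc7a11, the cystine importer, was higher in all but DNBS, at 12.6 to 126 CPM in DSS and 3.12 to 4.67 CPM in the WT controls (log2 fold change 3.77 ± 0.58 (SE), adjusted p = 4.91e-05). Chac1, which breaks glutathione down, was higher in the same 5, most in TRUC (log2 fold change 4.24 ± 0.61 (SE), adjusted p = 1.19e-05), and so were Gsr, the glutathione reductase (1.72 in TRUC and 0.56 in DSS), Srxn1 and Ggt5. Pgd, an NADPH source, was higher in all but DSS. Nqo1, chosen after its values were seen, was higher in TRUC (0.84), DNBS (1.07), IL10 (1.25) and TCT (1.20) and lower in DSS (-0.77). The NRF2 gene itself, Nfe2l2, was not called in any model, with log2 fold changes from -0.40 to 0.11.

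Other users of glutathione differed from the soluble GSTs. The 6 glutathione peroxidases had 3 higher and 0 lower in TRUC, 2 and 0 in DSS, 3 and 0 in DNBS, 4 and 1 in IL10, 2 and 0 in TCT and 2 and 0 in anti-CD40. Gpx2, the peroxidase of gut epithelium, was higher in all 6, with 1270 to 1690 CPM in TRUC against 263 to 285 CPM in the Rag2 controls (log2 fold change 2.38 ± 0.26 (SE), adjusted p = 5.3e-07), and log2 fold changes of 1.26 in DSS, 1.17 in DNBS, 1.91 in IL10, 1.29 in TCT and 1.44 in anti-CD40. The 9 membrane transferases had 2 and 0 in TRUC, 3 and 2 in DSS, 0 and 1 in DNBS, 3 and 2 in IL10, 2 and 0 in TCT, and 0 and 1 in anti-CD40.

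**Figure D5:**
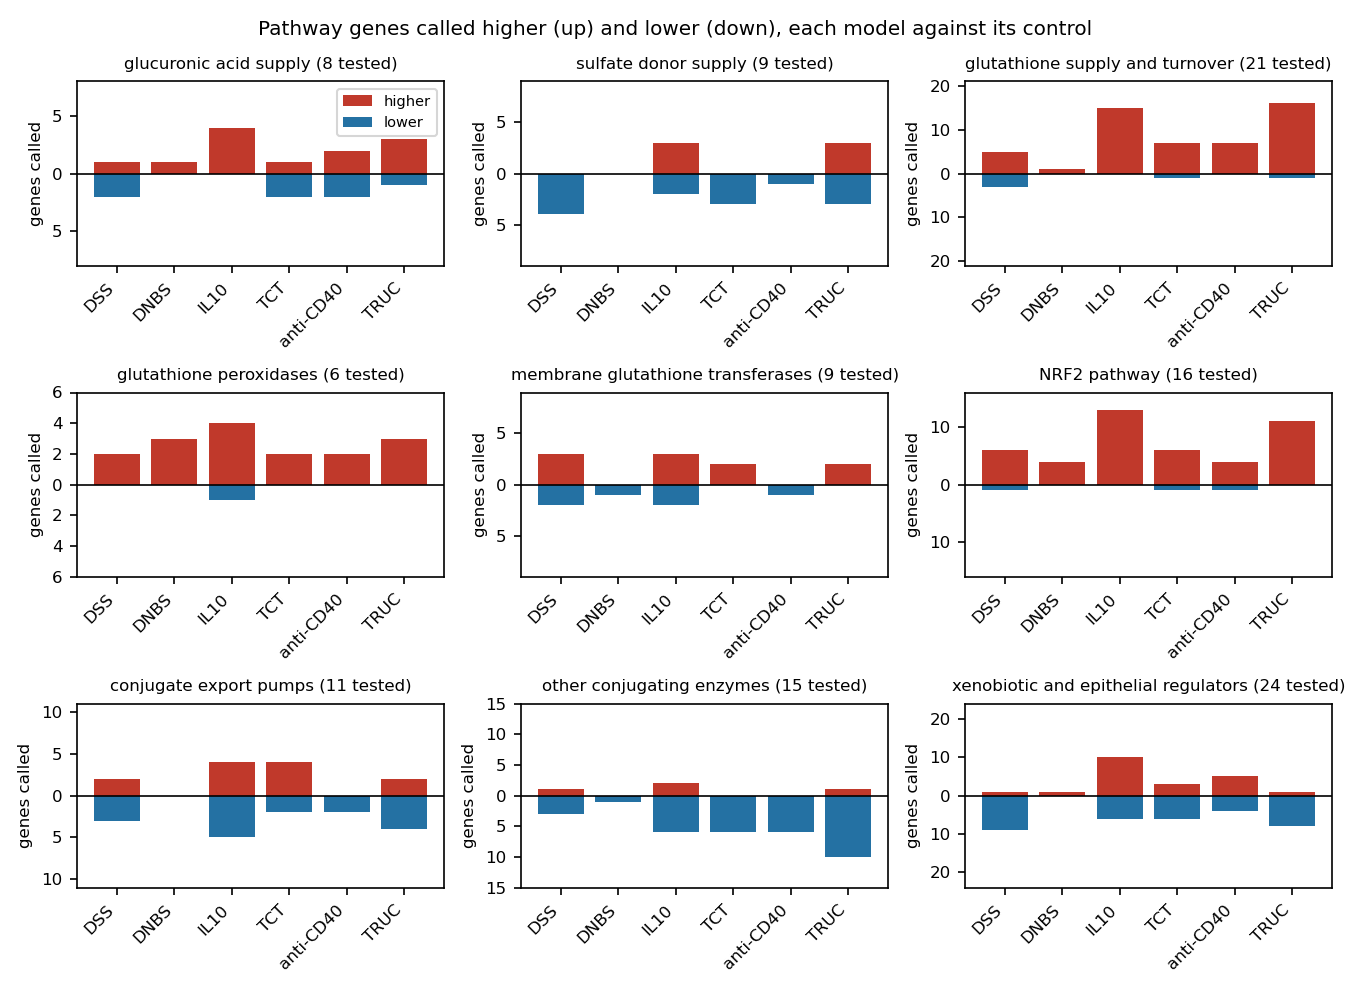
Number of genes called higher (up) and lower (down) in each pathway list (donor supply, glutathione, NRF2, export and other lists) in the 6 models. Glutathione supply and NRF2 have mostly higher calls, in particular in TRUC and IL10.

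The export list holds transporters of conjugates and of other compounds. Of 11, 2 were higher and 4 lower in TRUC, 2 and 3 in DSS, 0 and 0 in DNBS, 4 and 5 in IL10, 4 and 2 in TCT, and 0 and 2 in anti-CD40. Abcb1a, the P-glycoprotein of the gut wall, was at 25.9 to 49.5 CPM in TRUC and 470 to 525 CPM in the Rag2 controls (log2 fold change -3.68 ± 0.38 (SE), adjusted p = 1.64e-07), and it was lower in DSS (-2.21), IL10 (-2.62), TCT (-2.46) and anti-CD40 (-2.92). Other conjugating or hydrolysing enzymes (15 tested) were lower in most calls: 1 higher and 10 lower in TRUC, 1 and 3 in DSS, 0 and 1 in DNBS, 2 and 6 in IL10, 0 and 6 in TCT and 0 and 6 in anti-CD40. Ces2a, a carboxylesterase, was lower in 5 models, with log2 fold changes from -2.43 in TRUC to -1.21 in IL10. Regulators of these genes (24 tested) gave 1 and 8 in TRUC, 1 and 9 in DSS, 1 and 0 in DNBS, 10 and 6 in IL10, 3 and 6 in TCT and 5 and 4 in anti-CD40. Among them, and chosen after their values were seen, Nr1i2 (the pregnane X receptor) was lower in TRUC, DSS and TCT (-0.58, -1.39 and -0.67), Ahr (the aryl hydrocarbon receptor) in TRUC, IL10 and anti-CD40 (-0.48, -0.50 and -0.49), and Hnf4a was lower in DSS (-0.80) and higher in IL10 (0.58).

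Cell-type markers also differed between the models and their controls, not always in the direction of the members. Neutrophil markers (10 genes) summed to between 1.54 and 3.98 CPM in the controls, with 2 or 3 of the genes at 0 in each control group, and to 913 to 1570 CPM in TRUC, 214 to 2040 in DSS, 50 to 109 in DNBS, 202 to 630 in IL10, 139 to 370 in TCT and 106 to 315 in anti-CD40. Of 20 pan-epithelial markers, 11 were lower and 2 higher in DSS (median log2 fold change -0.45) and 14 were higher and none lower in IL10 (0.63). In TRUC 6 were higher and 1 lower, in DNBS 2 and 0, in TCT 0 and 3, and in anti-CD40 4 and 2. Their summed level was 14500 to 19400 CPM in the controls, 10200 to 13500 in DSS and 21100 to 27900 in IL10. Markers of mature colonocytes (20 genes) had 4 higher and 11 lower in TRUC (median -1.99), 6 and 5 in DSS, 1 and 0 in DNBS, 9 and 6 in IL10, 2 and 7 in TCT (-0.93) and 3 and 4 in anti-CD40. Smooth muscle markers were lower for 9 of 10 in IL10 and 6 of 10 in TRUC. The part of these shifts in the members' falls was not tested, apart from the rescaling that follows.

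With libraries scaled to the summed pan-epithelial markers, the members' calls were 1 higher and 20 lower in TRUC, 3 and 13 in DSS, 1 and 0 in DNBS, 4 and 23 in IL10, 4 and 17 in TCT, and 1 and 15 in anti-CD40. This scaling moved the median of all genes to -0.22 in TRUC, 0.44 in DSS, -0.13 in DNBS, -0.62 in IL10, -0.14 in TCT and -0.30 in anti-CD40. The members' medians were -0.87, -0.45, -0.23, -0.84, -0.92 and -0.85. Scaling by 1 factor per library moves all genes alike, so it leaves the distance between these medians about as it was. Of all 18616 genes, this scaling called 2529 higher and 5462 lower in TRUC, 7534 and 1071 in DSS, 303 and 426 in DNBS. In IL10 the counts were 1727 and 10109, in TCT 2029 and 3200, and in anti-CD40 810 and 3833. The share of higher calls among the members called in IL10 changed from 36.8% to 14.8%, and most genes called there were likewise lower.

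The 30 members below the filter were mostly silent. No count in any mouse was found for 11 of them (5 UGTs and 6 SULTs), and 24, those 11 included, had at most 3 counts in every mouse. Among the rest, Ugt1a1 had a count in 26 mice with no more than 13, Ugt1a6b in 17 mice and Ugt2b36 in 18, both with no more than 22. Of the GSTs only Gstt4 was below the filter. The Sult2a cluster and the estrogen sulfotransferase Sult1e1, both known from liver, had 0 to 3 counts in every mouse. A count of 0 allows up to 3 counts, or 0.179 to 0.313 CPM in these libraries, for counting error only.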

How the data were processed

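The authors deposited 1 table of raw counts, whole numbers of reads per Ensembl gene and mouse. The submitters' processing notes name Trimmomatic, HISAT2, HTSeq and GRCm38, and their versions, the annotation and the strand setting are not given in the sources used here. The kit does not mark strand, so reads of overlapping genes on opposite strands cannot be told apart. All columns were matched to samples by the column identifier in the labels (0 left out), and 92 spike-in controls with 0 counts were set aside. Symbols were found for 54409 of 54532 genes.

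The 18616 genes averaging 3 counts or more over the 29 mice were scaled by TMM and fitted with all 9 groups and no covariate by edgeR 4.0.16 (quasi-likelihood) in R 4.3.3. Adjusted p values are Benjamini-Hochberg over all genes tested, with a threshold of 0.05, and standard errors were derived from the log2 fold change and its F statistic (absolute value over root F). The 6 model effects were compared by an F test. The steps were tested on simulated data. Pairs of mice of a group (33) had a chi-square of at least 3.42 per degree of freedom, so none was a repeat. Shared sequence is the share of 50-base exon windows found in another gene. The members, lists and alternatives were chosen with earlier results of these data known. Genes named are the 4 highest per kilobase in each family, the 3 largest rises and falls per model, members called alike in at least 5 models or in both directions, the 5 that differ most between models, and listed pathway genes called alike in at least 5, with exceptions stated. Alternatives were RLE, upper quartile and pan-epithelial scaling, other filters and thresholds, DESeq2 1.42.0, 2 groups alone, a replicate block, other controls, and leaving out mice. Protein sequences were not used here.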

Additional observations from a re-analysis of the deposited data

Results flagged for a closer look

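In the groups of 4 mice, TRUC and IL10, 56 pairs of a named member and a group were examined for a mouse far from the other 3 (Dixon's ratio above 0.829), and 8 passed. Chance passes about 1 in 20 of such groups. IL10 mouse 4 was the highest for Ugt2b5, at 19.9 CPM against at most 0.514, and for Sult1d1, at 207 CPM against at most 162. TRUC mouse 5, with an identifier of another form than those of mice 2 and 3, was the highest for Gstm6 (8.95 CPM, next 7) and Sult2b1 (30.8 CPM, next 24.9) and the lowest for Gsto2 (0 CPM, next 0.356). TRUC mouse 2 was the highest for Gsta2 (2.36 CPM, next 1.16). TRUC mouse 4 had Ugt2b5 at 0.0916 CPM and IL10 mouse 2 had Ugt8a at 0.208 CPM where the others had none, all within the counting floor.

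The effects of the 6 models differed for 31 of 35 members by the F test across models (edgeR, adjusted over all genes). Of these, 6 were called higher in some models and lower in others: Gstp2 (adjusted p = 1.82e-07), Gsta4 (6.15e-07), Sult2b1 (1.38e-06), Gstp1 (2.67e-05), Gsto1 (3.01e-05) and Gstk1 (0.000616). The other 25 had adjusted p from 6.3e-06 to 0.0416. For Gstp2, Gsta4, Gsto1 and Sult2b1 the call in TCT was lost or turned with the WT controls in place of the Rag1 controls.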

How the results depend on the processing

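Over 6 models 99 calls were made, of which 53 were kept under all alternatives in which they were tested, 42 were lost under at least 1 and 4 turned. All leave-outs of single mice in which they were tested kept 72. These include Ugt2b5 in IL10, which was below the filter, and so not tested, without IL10 mouse 4. The 4 that turned were Gstp1 with pan-epithelial scaling (log2 fold change 0.13 in DSS and -0.05 in IL10) and, with the WT controls in place for TCT, Gsto1 (-0.06) and Sult2b1 (0.32). The cause was not tested. The counts of members called that moved by over 1.5 times were as follows. DNBS had 1 call (2 as reported) at an adjusted p of 0.01, 1 with upper quartile and 1 with pan-epithelial scaling, 7 by DESeq2 (3 higher, 4 lower) and 6 without DSS mouse 8 and IL10 mouse 4 together, an alternative added after seeing the data. TCT had 14 (23 as reported) at an adjusted p of 0.01 and 15 (4 higher, 11 lower) against the WT controls. DSS had 15 (24 as reported) with its 2 groups alone. Rag1 against WT controls had 11 (6 as reported) with 2 groups alone and 12 by DESeq2, and Rag1 against Rag2 controls 1 by DESeq2. Leaving out 1 mouse at a time, the counts ran from 16 to 19 in TRUC, 18 to 25 in DSS, 1 to 2 in DNBS, 16 to 20 in IL10, 15 to 22 in TCT (15 without TCT mouse 5), 9 to 13 in anti-CD40, 5 to 6 for WT against Rag2 and for Rag1 against WT controls, 0 to 0 for Rag1 against Rag2 controls and 29 to 31 for the difference between models. In IL10, 36.8% of calls were higher as reported and 14.8% with pan-epithelial scaling. In DSS these shares were 8.3% and 18.8%. Over all genes, that scaling gave 1727 higher and 10109 lower calls in IL10, and 7534 and 1071 in DSS.

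Replicate numbers do not pair the mice: the deviations of same-numbered mice correlated between -0.15 and 0.13. With the replicate number as a block, TRUC had 20 calls (21 for the same mice without it), IL10 18 (16), WT against Rag2 controls 9 (8), Rag1 against Rag2 controls 0 (0) and Rag1 against WT controls 8 (7). DSS, DNBS, TCT and anti-CD40 share fewer than 2 numbers with their controls and were not blocked. For Rag1 and Rag2 controls, with 2 shared numbers, the correlations were -0.15 and 0.03, and no crossed pairing was run. Depth limits the members near the floor of 0.179 to 0.313 CPM: Ugt2b5, Ugt8a, Sult5a1, Gsto2 and Gsta2.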
